A study of Mus musculus with 6 samples.

Results

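The small proline-rich protein (Sprr) genes form a tight cluster on mouse chromosome 3, and 10 of them were followed here by gene name: Sprr1a, Sprr1b, Sprr2b, Sprr2d, Sprr2e, Sprr2f, Sprr2g, Sprr2h, Sprr2k and Sprr3. They are 10 of the 54532 genes of the count table, which lists 17 Sprr genes in all. RNA was sequenced from cultured cells of the aorta of wild-type male mice, labelled endothelial cells, with 3 cell isolations each split into a Vehicle culture and an LPS culture. Vehicle cultures were kept in starvation medium for 8 h, and LPS cultures received lipopolysaccharide, a cell wall component of Gram-negative bacteria, at 500 ng/mL for the same 8 h. The labels do not state the age of the mice or the passage of the cultures. Each library comes from a separate culture, and cultures of the same number share an isolation. The genes were selected on their counts under LPS against Vehicle in these libraries, so those levels are given as a description, and nothing is read from their tests.

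Small proline-rich proteins are short proteins rich in proline, glutamine and cysteine that transglutaminases cross-link into the cornified envelope, the tough layer beneath the membrane of the outermost cells of skin and other stratified epithelia. Their genes lie in the epidermal differentiation complex, among genes for loricrin, involucrin, late cornified envelope proteins and S100 proteins. Outside skin, Sprr1a is known in mice as a gene switched on in injured neurons and stressed heart muscle, Sprr2 genes respond to estrogen in the mouse uterus, and Sprr3 has been described in smooth muscle cells of atheromas.

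Total counts per library ranged from 16509197 to 25082714. Levels are given as CPM, counts scaled to the TMM-adjusted library size, and 3 counts, the upper limit that a count of 0 allows, corresponded to 0.117 to 0.188 CPM. Such limits cover counting error only. The label endothelial was checked against 15 endothelial markers: 5 had enough counts to be tested, and the list summed to 339 to 362 CPM over the 6 libraries, nearly all of it Eng (a Vehicle mean of 286 CPM) and Flt1 (an LPS mean of 52.0 CPM). Of the defining markers, Erg was tested and had a mean of 8.29 CPM in Vehicle and 5.47 CPM under LPS. The others were low: Pecam1 had a mean of 0.482 CPM in Vehicle and 0.28 CPM under LPS, Cdh5 0.0361 and 0.0315 CPM, Tek 0.175 and 0.0829 CPM and Vwf 0.0882 and 0.339 CPM. The summed level of 8 fibroblast markers lay between 3989 and 7451 CPM. The culture is therefore called by its label and no other cell type name is given to it. In bulk RNA, fewer cells of a type and less RNA per cell cannot be told apart.

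The sequences before the start sites are shown first because they are what most of these genes were found to share. RefSeq promoter windows of 300 bases on GRCm38.p6, from 250 bases before to 50 after the start site, were matched by symbol for 9 of the 10 genes; Sprr2g is named only. The windows below belong to the most abundant gene (Sprr1a), to the gene with the highest ratio of LPS to Vehicle (Sprr2e), to its close but nearly silent relative Sprr2d, to Sprr2b and Sprr2h, and to Sprr1b, which had no counts. Ivl, the involucrin gene next to the cluster, is added for comparison. Capitals mark matches to the AP-1 motif TGANTCA and to the TATA box TATAAA on either strand, and each sequence is written 5′ to 3′ on the strand of the gene.
Sprr1a promoter (chr3:92485832-92486131, minus strand): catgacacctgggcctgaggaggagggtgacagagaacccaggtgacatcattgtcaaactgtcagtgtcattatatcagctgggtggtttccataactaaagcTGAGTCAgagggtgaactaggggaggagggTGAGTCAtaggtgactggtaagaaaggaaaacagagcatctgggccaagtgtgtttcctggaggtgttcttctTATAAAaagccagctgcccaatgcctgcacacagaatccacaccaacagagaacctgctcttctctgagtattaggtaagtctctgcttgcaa
Sprr2b promoter (chr3:92316455-92316754, plus strand): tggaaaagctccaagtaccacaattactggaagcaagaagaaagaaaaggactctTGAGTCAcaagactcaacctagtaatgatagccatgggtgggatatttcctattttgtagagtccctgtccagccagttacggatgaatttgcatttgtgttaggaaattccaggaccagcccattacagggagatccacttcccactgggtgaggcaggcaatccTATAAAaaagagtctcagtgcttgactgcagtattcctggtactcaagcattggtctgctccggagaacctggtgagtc
Sprr2d promoter (chr3:92338890-92339189, plus strand): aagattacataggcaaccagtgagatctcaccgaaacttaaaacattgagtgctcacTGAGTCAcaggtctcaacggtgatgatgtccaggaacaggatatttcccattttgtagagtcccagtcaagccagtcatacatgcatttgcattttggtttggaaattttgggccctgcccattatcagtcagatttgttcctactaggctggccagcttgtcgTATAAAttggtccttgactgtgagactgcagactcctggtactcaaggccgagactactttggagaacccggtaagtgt
Sprr2e promoter (chr3:92351893-92352192, plus strand): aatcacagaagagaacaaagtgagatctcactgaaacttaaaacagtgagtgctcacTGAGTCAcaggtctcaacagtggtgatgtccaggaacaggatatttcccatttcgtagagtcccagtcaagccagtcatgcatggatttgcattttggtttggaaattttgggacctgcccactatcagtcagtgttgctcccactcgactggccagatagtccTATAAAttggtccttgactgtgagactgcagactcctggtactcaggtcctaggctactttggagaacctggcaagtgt
Sprr2h promoter (chr3:92385435-92385734, plus strand): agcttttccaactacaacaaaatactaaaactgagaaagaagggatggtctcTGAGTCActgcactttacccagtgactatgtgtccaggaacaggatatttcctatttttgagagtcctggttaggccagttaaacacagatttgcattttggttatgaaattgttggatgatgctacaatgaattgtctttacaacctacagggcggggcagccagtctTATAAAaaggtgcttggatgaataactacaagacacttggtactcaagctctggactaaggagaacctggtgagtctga
Sprr1b promoter (chr3:92438730-92439029, minus strand): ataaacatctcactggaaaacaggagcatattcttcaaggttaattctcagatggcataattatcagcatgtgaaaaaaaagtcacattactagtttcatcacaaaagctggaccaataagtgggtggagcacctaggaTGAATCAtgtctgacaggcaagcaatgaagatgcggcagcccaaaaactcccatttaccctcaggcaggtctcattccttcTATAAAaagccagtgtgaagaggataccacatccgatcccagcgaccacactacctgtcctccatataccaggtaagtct
Ivl promoter (chr3:92573686-92573985, minus strand): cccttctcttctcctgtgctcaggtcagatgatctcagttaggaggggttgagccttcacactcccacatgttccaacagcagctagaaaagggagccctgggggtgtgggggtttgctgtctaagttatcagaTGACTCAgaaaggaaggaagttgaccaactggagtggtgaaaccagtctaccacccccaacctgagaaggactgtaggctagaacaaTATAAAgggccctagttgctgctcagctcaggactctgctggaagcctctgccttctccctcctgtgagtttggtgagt

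A TATA box was found in 9 of the 9 matched promoters, against 13.6% of all 32851 promoter windows of the same length. An AP-1 match was found in 8 of the 9, against 7.81% of all windows; AP-1 is the dimer of Jun and Fos proteins. Sprr3 was the exception among the 9. In Sprr2b, Sprr2d, Sprr2e, Sprr2f, Sprr2h and Sprr2k the most distal AP-1 match began between 193 and 198 bases upstream of the start site, and the TATA box began 29 bases upstream in all 6. Sprr2k held another AP-1 match 182 bases upstream. Sprr1a held AP-1 matches at 146 and 116 bases upstream and its TATA box at 43, and Sprr1b held a single AP-1 match at 111. Outside the 10 genes, the Sprr2i promoter held the AP-1 match, the octamer and the TATA box at 193, 108 and 29 bases upstream. The windows of Sprr2a1, Sprr2a2, Sprr2a3 and Sprr4 held neither AP-1 match nor TATA box. The RefSeq start site and the deposited gene start were offset by −36 bases for Sprr2a1, −34727 for Sprr2a2 and 113 for Sprr2a3. The windows of Sprr2a1 and Sprr2a2 end in ggtgaggcagg, letters that stand shortly before the TATA box of Sprr2b. Bases beyond the windows were not searched, so no lack of either motif is read for the Sprr2a genes. Since the promoters of the Sprr2 genes resemble each other, they are not independent observations of a motif.

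The octamer ATTTGCAT, a motif of POU factors that was looked for after the windows had been read, stood between 108 and 112 bases upstream in the 6 matched Sprr2 genes, and 1.74% of all windows hold it. Ets matches (AGGAAG) were found in 3 of the 9 promoters, against 35.4% of all windows, and KLF matches (CACCC) in 5, against 57.5%. No STAT match (TTCNNNGAA, in 8.3% of all windows) and no match to the NF-kB motif (in 5.81%) lay in any of the 9, which says only that these letters are not in these windows. All motifs were searched on both strands, and no AP-1 match overlapped a TATA box, while a KLF match of Sprr1a at 119 bases overlapped its AP-1 match at 116. The start site of the RefSeq table and the start of the deposited gene agreed for Sprr2d, Sprr2e, Sprr2f, Sprr2h, Sprr2k and Sprr3, and were offset by −85 bases for Sprr2b, −14 for Sprr1a and −10 for Sprr1b.

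**Figure D1:**
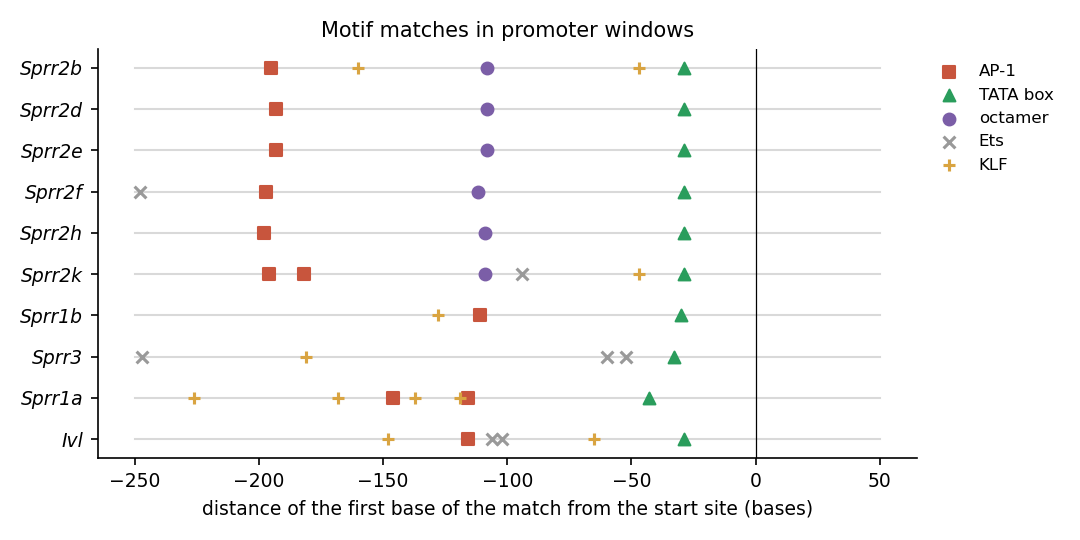
Motif matches in the promoter windows of 9 Sprr genes and of Ivl. The horizontal axis is the distance of the first base of each match from the start site, in bases, and each row is a gene; the 6 Sprr2 rows carry the AP-1 match (red squares) 193 to 198 bases and the TATA box (green triangles) 29 bases upstream.

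The levels of the 10 genes spanned the whole range from no counts to among the highest of the table, and 5 of them (Sprr1a, Sprr2b, Sprr2g, Sprr2e and Sprr2h) had enough counts to enter the fit across all genes. Sprr1a (ENSMUSG00000050359, GRCm38 chromosome 3, 92483952 to 92485895, minus strand), an early precursor of the cornified envelope, had 152, 182 and 223 CPM in Vehicle 1, 2 and 3 and 240, 320 and 393 CPM in LPS 1, 2 and 3. All LPS libraries stood above all Vehicle libraries, with the smallest gap between Vehicle 3 and LPS 1. The group means were 186 ± 35.9 and 318 ± 76.5 CPM (SD, n = 3 each), a log2 fold change of 0.77 (SE 0.185). Per kilobase of the deposited gene length, the Vehicle level of Sprr1a was 230 CPM per kb, higher than that of 99.1% of the tested genes.

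Sprr2b (ENSMUSG00000050092, chromosome 3, 92316620 to 92318085, plus strand), an envelope precursor of the Sprr2 subfamily, had 20.2, 15.6 and 23.1 CPM in Vehicle 1, 2 and 3 and 29.8, 33.5 and 40.3 CPM in LPS 1, 2 and 3. The groups did not overlap, and the log2 fold change was 0.81 (SE 0.162). Sprr2g (ENSMUSG00000046203, chromosome 3, 92373915 to 92375229, plus strand), which the table lists as a polymorphic pseudogene, had 9.49, 7.87 and 9.54 CPM in Vehicle and 25.1, 28.4 and 31.2 CPM under LPS. Its libraries were close together within each group and far apart between them, at a log2 fold change of 1.65 (SE 0.136).

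Sprr2e (ENSMUSG00000055030, chromosome 3, 92352143 to 92353449, plus strand), another envelope precursor, stood out by the size of its difference. It had 3.99, 3.13 and 2.7 CPM in Vehicle 1, 2 and 3 and 19.1, 18.6 and 27.5 CPM in LPS 1, 2 and 3. Every LPS library was several times above every Vehicle library, and the log2 fold change of 2.74 (SE 0.212) was exceeded by 11 of the 14508 tested genes. The ratio of LPS to Vehicle was 4.79, 5.94 and 10.2 in isolations 1, 2 and 3. Sprr2h (ENSMUSG00000046259, chromosome 3, 92385685 to 92387324, plus strand) was far less abundant, with 9, 9 and 28 counts in Vehicle and 21, 43 and 87 under LPS, or 0.505, 0.469 and 1.1 CPM and 0.991, 2.69 and 4.38 CPM. LPS 1 lay below Vehicle 3, so the groups of Sprr2h overlapped, although LPS was above Vehicle within each isolation. Its log2 fold change was 1.90 with a wide SE of 0.555. The Vehicle libraries of Sprr2h alone would not have met the count filter, so it entered the fit through its higher LPS counts.

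**Figure D2:**
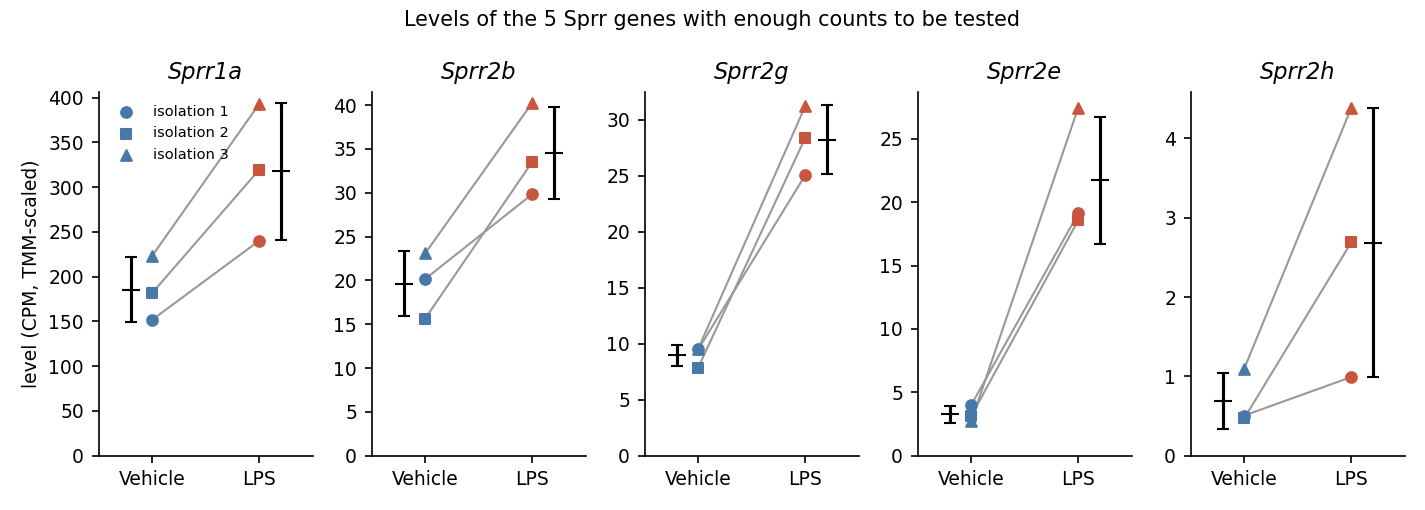
Levels of the 5 Sprr genes with enough counts to be tested, in CPM on linear axes that start at 0. Each symbol is a library, grey lines join the Vehicle and LPS culture of the same isolation, and black bars give the group mean ± SD (n = 3); every line slopes upward, and Sprr2h is the panel in which an LPS library (0.991 CPM) lies below a Vehicle library (1.1 CPM).

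The order of the levels per kilobase in Vehicle was Sprr1a at 230 CPM per kb, Sprr2b at 25.0, Sprr2g at 13.8, Sprr2e at 5.06 and Sprr2h at 0.917. Under LPS it was Sprr1a at 394 CPM per kb, Sprr2b at 44.1, Sprr2g at 43.4, Sprr2e at 33.6 and Sprr2h at 3.57. By group means the order of the 5 genes was thus the same in both groups, but the gaps between Sprr2b, Sprr2g and Sprr2e narrowed. Their ranges of CPM per kb were apart in Vehicle. Under LPS the ranges of Sprr2b and Sprr2g overlapped, as did those of Sprr2g and Sprr2e. Per kilobase, Sprr2g stood above Sprr2b in LPS 1 and LPS 2 and below it in LPS 3, so the order of their LPS means rests on LPS 3.

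Nearly silent and silent genes sat between the abundant ones. Sprr2k had 0, 3 and 3 counts in Vehicle and 6, 5 and 7 under LPS, with no overlap. Sprr2d had 1, 3 and 0 counts in Vehicle and 3, 1 and 8 under LPS, so its groups overlapped in counts. Sprr2f had 0, 1 and 0 counts in Vehicle and 5, 1 and 5 under LPS. These 3 genes were too low to be tested, and no fold change is given for them. Sprr1b, a close relative of Sprr1a, and Sprr3, a longer protein known from esophagus, had 0 counts in all 6 libraries, which allows at most 0.188 CPM in the shallowest library.

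Sprr2d and Sprr2e were close in sequence and far apart in level. Their promoter windows, printed above, were identical at 89.1% of aligned positions, with 29 mismatches and 4 gap positions, and their longest transcripts at 79.2%. Both windows hold the AP-1 match 193 bases, the octamer 108 bases and the TATA box 29 bases upstream. Under LPS, Sprr2e had 405, 297 and 545 counts where Sprr2d had 3, 1 and 8. Sprr1b holds an AP-1 match, TGAATCA, and a TATA box and had no counts. Sprr3, which also had no counts, holds a TATA box and no AP-1 match.

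**Figure D3:**
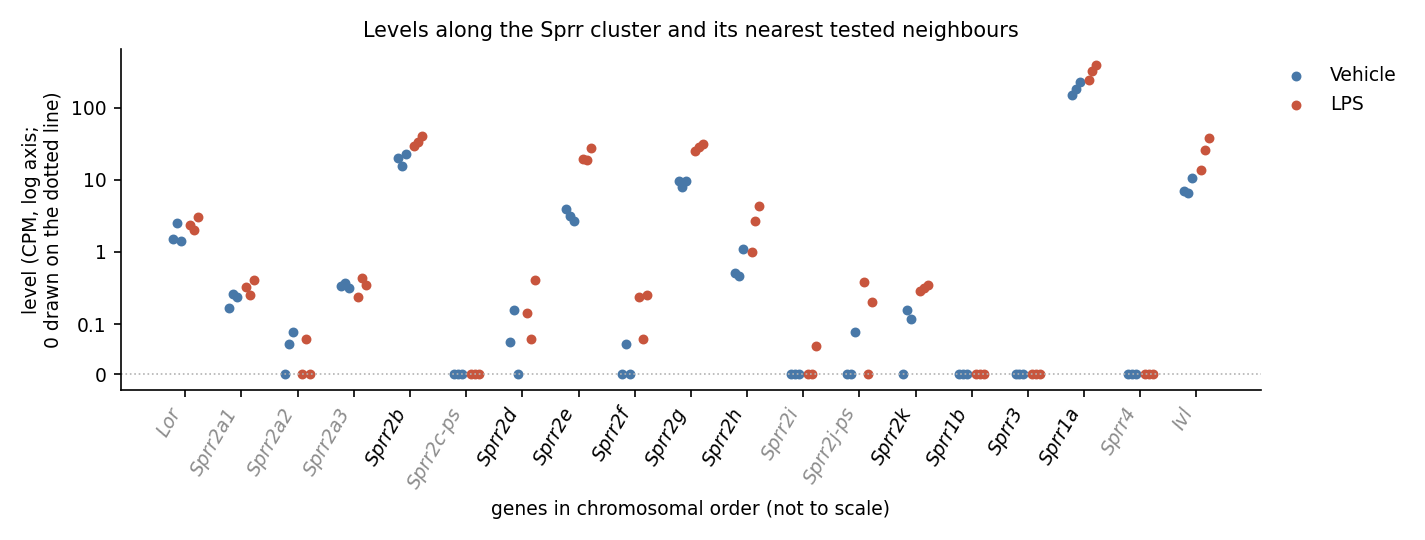
Levels in CPM (log axis, 0 drawn on the dotted line) of the 17 Sprr genes and of the nearest tested neighbour on either side, in chromosomal order; the 10 genes followed here have black names, the others grey ones. Each point is a library, blue for Vehicle and red for LPS; Sprr1a reaches 393 CPM, whereas its neighbours Sprr1b, Sprr3 and Sprr4 are at 0 in all libraries.

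The 7 other Sprr genes of the table were at the bottom of the range and none had enough counts to be tested. Sprr2a1 had between 3 and 8 counts per library, Sprr2a3 between 5 and 8, and Sprr2a2 0 to 2. Sprr2j-ps had 0, 0 and 2 counts in Vehicle and 8, 0 and 4 under LPS, Sprr2i a single count in LPS 3, and Sprr2c-ps and Sprr4 none. Together these 7 genes summed to between 0.505 and 0.704 CPM in Vehicle and between 0.751 and 1.01 CPM under LPS.

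How far reads can be told apart between such similar genes was checked on the GENCODE M21 transcripts. Pairs of the 7 Sprr2 genes followed here were identical at 56.8% to 79.2% of aligned positions (21 pairs). Of the 100-base windows of the longest transcript, 99.6% in Sprr2b, 98.9% in Sprr2e and 100% in the other 8 genes occurred in no transcript of another gene. At 50 bases the shares were 86.3% for Sprr2b, 89.8% for Sprr2e, 95.7% for Sprr2d and 99.3% for Sprr2f. Sprr2a1 and Sprr2a2, by contrast, overlap on the chromosome and had 7.51% and 7.23% unique 100-base windows, so their low counts are uncertain. None of the 10 genes overlaps another annotated gene, and all had the deposited coordinates in GENCODE M21.

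Summed over the 10 genes, the level was 186, 209 and 260 CPM in Vehicle 1, 2 and 3 and 316, 403 and 498 CPM in LPS 1, 2 and 3. Sprr1a took 81.4%, 86.6% and 85.7% of all Sprr counts in the Vehicle libraries and 75.8%, 79.1% and 78.9% in the LPS libraries. The share of Sprr2e was 1.55 ± 0.554% in Vehicle and 5.38 ± 0.726% under LPS, and that of Sprr2g 4.17 ± 0.799% and 7.07 ± 0.822% (SD, n = 3 each). Sprr2b held a share of 9.04 ± 1.69% and 8.6 ± 0.717%, which differed by less than the spread between libraries. Without Sprr1a, the summed level of the remaining 9 genes was 32.7 ± 4.7 CPM in Vehicle and 87.9 ± 14.8 CPM under LPS, 2.68 times the Vehicle level, against 1.86 times with Sprr1a included.

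Set against the whole table, 5 of the 5 tested genes passed the adjusted threshold of 0.05 upward, where 24.9% of the 14508 tested genes were called higher and 49.3% were called in either direction. All 3 LPS libraries stood above all 3 Vehicle libraries in 4 of the 5, where 31.1% of tested genes did so and 30.8% had all LPS libraries below all Vehicle libraries. Both counts belong to the contrast for which the genes were proposed, and nothing is read from them. The median log2 fold change of the 5 was 1.65, beside −0.00306 over all tested genes. The 5 include Sprr2h, which met the count filter only with its LPS libraries.

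The fold changes of this table vary with gene length, and Sprr genes are short. The 5 tested genes were 647 to 806 bases long by the deposited length, against a median of 4089 bases over all tested genes. Within that range lay 230 tested genes, whose median was 0.72 on the log2 scale, and 44.8% of them were called higher. Sprr1a at 0.77 and Sprr2b at 0.81 lay close to that median, whereas Sprr2g at 1.65, Sprr2h at 1.90 and Sprr2e at 2.74 lay above it. With an offset for length in the edgeR model the log2 fold changes became 0.29 (SE 0.138) for Sprr1a, 0.34 (SE 0.131) for Sprr2b, 1.18 (SE 0.112) for Sprr2g, 1.40 (SE 0.5) for Sprr2h and 2.27 (SE 0.183) for Sprr2e. Then 3 of the 5 were past the threshold upward, where 23.9% of tested genes were, and again nothing is read from this count. The part that gene length plays in these differences was not tested beyond this offset.

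**Figure D4:**
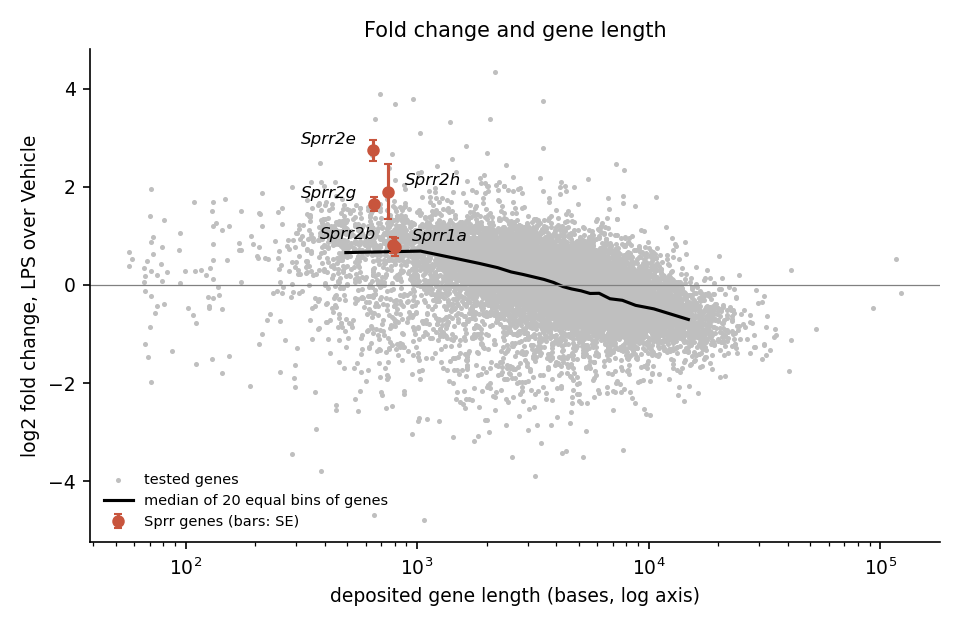
Log2 fold change of LPS over Vehicle against the deposited gene length (log axis) for the 14508 tested genes (grey points). The black line joins the medians of 20 equal bins of genes by length, and red points with SE bars are the Sprr genes; Sprr1a (0.77) and Sprr2b (0.81) sit near the line, and Sprr2e (2.74), Sprr2h (1.90) and Sprr2g (1.65) above it.

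The levels by isolation were not used in the choice of the genes and could be tested. For Sprr1a, isolation 3 was above isolation 1 in both groups, at 223 against 152 CPM in Vehicle and 393 against 240 CPM under LPS, and isolation 2 lay between them in both. In the model with isolation and group, Sprr1a was 0.34 higher in isolation 2 and 0.63 higher in isolation 3 than in isolation 1 on the log2 scale, and Sprr2h 0.89 and 1.75 higher. The edgeR test of the isolations did not call them after adjustment over all genes (adjusted p = 0.54 for both). It called 0 of the 5 Sprr genes and 0.00689% of all tested genes; 2 of the 5 and 9.23% of all genes had an unadjusted p under 0.05 in the same test. DESeq2 called Sprr1a (adjusted p = 0.00489), where it called 0.349% of the genes with an adjusted p. Sprr2b, Sprr2e and Sprr2g had adjusted p of 0.545, 0.841 and 0.79 in edgeR, and an adjusted p above the threshold does not show that the isolations were alike. The ratio of LPS to Vehicle of Sprr1a within isolations was 1.58, 1.76 and 1.76, and the SE of its log2 fold change was 0.0838 with the isolation as a block, against 0.185 without it.

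Genes next to the cluster were not uniform. Ivl (ENSMUSG00000049128, chromosome 3, 92570902 to 92573735, minus strand), which encodes involucrin, a scaffold of the cornified envelope, lies 70.4 kb beyond the cluster and is its nearest tested neighbour on that side. It had 7.02, 6.47 and 10.6 CPM in Vehicle 1, 2 and 3 and 13.8, 26.3 and 37.8 CPM in LPS 1, 2 and 3, with no overlap between the groups. Ivl rose by 1.68 on the log2 scale (edgeR adjusted p = 0.00314, SE 0.333). The value adjusted for length was 1.34 (adjusted p = 0.00484). Without isolation 2 Ivl was not called (adjusted p = 0.0679), when 9 genes were called higher and 0 lower over the whole table. Lor, the loricrin gene and nearest tested neighbour on the other side at 133 kb, had 1.52, 2.55 and 1.41 CPM in Vehicle and 2.36, 2 and 3.02 CPM under LPS. Its groups overlapped and it was not called (log2 fold change 0.44, SE 0.314, adjusted p = 0.266). Among the 10 nearest tested genes on each side, 6 and 4 were called higher and none lower, beside 24.9% of all tested genes called higher and 24.4% lower; these 20 genes reach as far as 1964 kb from the cluster. Adjusted for length, S100a11 was no longer called (adjusted p = 0.288), and Snapin (−0.48, adjusted p = 0.00581) and Gm4202 (−0.71, adjusted p = 0.0458) were called lower. The tested gene within the cluster, Gm9774, which the table lists as protein coding, was called higher (0.79 on the log2 scale, adjusted p = 0.0309). That call ended after adjustment for length (adjusted p = 0.259) and when any of Vehicle 1, LPS 2, LPS 3 or Vehicle 2 was left out (adjusted p from 0.0642 to 0.109).

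The list of other genes of the epidermal differentiation complex left out its S100 genes, and most of the listed genes were too low to be tested. Of the 38 listed genes, 4 were tested (Ivl, Lor, Tchh and Crct1), 1 of which rose and none fell, and 19 had 0 counts in all libraries. The list was written with earlier results of these data known. The median log2 fold change of the 4 was 0.03. Among the S100 genes counted above as neighbours, S100a1, S100a6, S100a8, S100a10, S100a11, S100a13 and S100a16 were called higher, beside 24.9% of all tested genes. Their log2 fold changes lay between 0.60 (S100a11) and 3.89 (S100a8, SE 0.796, at a mean of 1.05 CPM under LPS). S100a8 had 3, 1 and 0 counts in Vehicle, so it met the count filter only with its LPS libraries. Adjusted for length, the values lay between 0.13 (S100a11, no longer called) and 3.42 (S100a8). S100a4 and S100a7a were not called. Markers of epithelial cells were near the limit of detection: of 13, none had enough counts to be tested, and their summed level was 0.626 to 1.63 CPM in Vehicle and 0.566 to 1.61 CPM under LPS. Krt5 and Krt14, the keratins of basal keratinocytes, had 0 counts in every library, Epcam 0 counts in all Vehicle libraries and a mean of 0.155 CPM under LPS, Cdh1 0.104 and 0.0325 CPM and Trp63 0.79 and 0.219 CPM. Of 5 markers of late keratinocytes, Ivl was called higher, Krt10 (2.47 ± 0.12 and 4.02 ± 1.61 CPM, adjusted p = 0.0709, called at 0.00823 without LPS 1 and at 0.0364 without a filter) and Lor were not called, Krt1 had no counts and Flg was not tested.

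Mesothelial cells line the body cavities, and of their 6 markers 2 were tested. Krt19, a keratin of simple epithelia and mesothelium, rose from 27.7 ± 3.45 to 66.9 ± 22.2 CPM (edgeR adjusted p = 0.00193, a log2 difference of 1.27). Without isolation 2 Krt19 was not called (adjusted p = 0.0633), when 9 genes of the whole table were called higher. Upk3b had 0.891 ± 0.346 and 0.821 ± 0.341 CPM (adjusted p = 0.847). The summed level of the mesothelial markers was 25.4 to 32.1 CPM in Vehicle and 44.0 to 89.5 CPM under LPS, nearly all of it Krt19. Msln, Upk1b, Lrrn4 and Wt1 were too low to be tested. Markers of macrophages summed to 5.36 to 6.18 CPM in Vehicle and 5.9 to 7.63 CPM under LPS, with Ptprc, Adgre1 and C1qa at 0 in all libraries and Csf1r, the most abundant of 2 tested, not called (adjusted p = 0.37). The part of other cell types in the Sprr levels was not tested.

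Of the markers of vessel wall cells, 0 of 5 tested endothelial ones rose and 1 fell, Erg, an endothelial transcription factor gene, from 8.29 ± 0.973 to 5.47 ± 0.857 CPM (adjusted p = 0.0205; the call ended without each of Vehicle 1, Vehicle 2, LPS 3, isolation 2 and isolation 3, at adjusted p from 0.0546 to 0.118). Flt1 (−0.20 on the log2 scale, adjusted p = 0.108) was called lower without LPS 1 (adjusted p = 0.0134) and turned direction after adjustment for length (0.39, called higher at 0.00714). Egfl7 was called higher with the isolation as a block (0.62, adjusted p = 0.0412), without LPS 1 and without Vehicle 3 (0.0297 and 0.0341), and Esam without LPS 1 (0.0453). The endoglin gene Eng, the most abundant of those not called, stood at 286 ± 1.22 CPM in Vehicle and 278 ± 5.6 CPM under LPS. Of 5 tested smooth muscle markers 1 rose, Smtn, by 0.50 on the log2 scale (adjusted p = 0.00569), and Acta2 had 242 ± 15.8 and 274 ± 36.4 CPM (adjusted p = 0.194, and called at 0.0379 without LPS 1). Of 8 fibroblast markers 2 rose and 3 fell. Beside these marker counts, 24.9% of all tested genes were called higher and 24.4% lower. Pi16 rose by 0.74 and Dcn by 0.57 on the log2 scale, and Pdgfra fell from 729 ± 73.4 to 389 ± 93.1 CPM (adjusted p = 0.00193). Adjusted for length, 2 fibroblast markers rose and 2 fell. Col1a2 went from −0.48 to 0.08 and was no longer called (adjusted p = 0.525), and Pdgfra went from −0.91 to −0.45 (adjusted p = 0.00763). Col3a1 had 1020 ± 173 and 776 ± 176 CPM (adjusted p = 0.0789, and 0.0049 with the isolation as a block). Without LPS 1 it was called lower (adjusted p = 0.000206). Without isolation 2 none of these vessel wall markers was called, when 9 genes were called higher and 0 lower over the whole table.

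In a list drawn up for the cornified envelope, not all of whose products build it, some genes were called higher and some lower. Of its 30 genes in the table, 15 were tested, of which 7 rose, 2 fell and 6 were not called. Their median was 0.17 on the log2 scale, where 24.9% of all tested genes were called higher and 24.4% lower. Adjusted for length, 6 rose and 1 fell: the calls of S100a11 (0.13, adjusted p = 0.288) and Ppl (−0.26, adjusted p = 0.0875) ended. Without that adjustment, the called genes of largest change were Cst6, S100a10 and Serpinb2, and with it Cdsn (−1.02) came after Cst6 (1.09). Cst6, a cystatin that restrains proteases in the skin barrier, rose from 4.36 ± 0.594 to 9.28 ± 2.25 CPM (adjusted p = 0.00319, a log2 difference of 1.09). S100a10, a partner of annexin A2, rose from 231 ± 24.0 to 450 ± 130 CPM (a log2 difference of 0.96, and of 0.52 adjusted for length), and Serpinb2, a plasminogen activator inhibitor found in the envelope, from 555 ± 86.6 to 1079 ± 119 CPM. The other genes that rose were Anxa1, Anxa2, Hmga1 and S100a11, and those that fell were Ppl, the periplakin scaffold, and Cdsn, corneodesmosin. Of those that rose, the annexins Anxa1 and Anxa2 are membrane-binding proteins of many cell types and Hmga1 encodes a chromatin protein. Without isolation 2, none of the list was called, when 9 genes were called higher and 0 lower over the whole table.

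Of the enzymes that cross-link envelope proteins, Tgm2, the ubiquitous transglutaminase, had 245 ± 11.4 and 248 ± 24.3 CPM (log2 fold change 0.02, adjusted p = 0.87). The epidermal transglutaminases were low: Tgm1 had means of 0.0996 and 0.219 CPM, Tgm3 0.0261 and 0.0157 CPM and Tgm5 0.0435 and 0.163 CPM, and none of the 3 was tested. The desmosomal cadherin genes Dsg1a, Dsg3 and Dsc1 had no counts.

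Factors known to act on Sprr genes were read next. Of 35 listed genes 28 were tested, of which 11 rose and 8 fell, with a median of 0.17 on the log2 scale, beside the same 24.9% and 24.4% of all tested genes. Adjusted for length, 11 rose and 5 fell: Ets1 (0.55) and Keap1 (0.23) were then called higher and Klf4 (−0.38) lower, in place of Atf3, Socs3, Fosl2, Osmr, Pou2f1 and Stat3. AP-1 subunits, whose motif the promoters printed above carry, were tested in all 8 cases with Atf3 included, and 5 rose and 1 fell. Jun rose by 0.51 (SE 0.0899), Junb by 0.81 (SE 0.115), Jund by 0.71 (SE 0.0952), Fosl1 by 0.84 (SE 0.203) and Atf3 by 1.04 (SE 0.345) on the log2 scale, with adjusted p from 0.0014 for Jund to 0.0306 for Atf3. Fosl2 fell by 0.60 (SE 0.111), a call that ended after adjustment for length (adjusted p = 0.128). The call of Atf3 ended after the same adjustment (adjusted p = 0.107), with the isolation as a block (0.0508) and without any of the 6 libraries (0.0522 to 0.103). Fos and Fosb were not called. Whether AP-1 acts on the Sprr promoters in these cells was not measured.

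The interleukin-6 family, which signals through gp130 and is known to induce Sprr1a in rodent heart muscle cells, was read by ligands and receptors. Its 3 tested ligand genes rose: Il11 by 2.68 (SE 0.512), Il6 by 2.44 (SE 0.194) and Lif by 2.01 (SE 0.192) on the log2 scale, with adjusted p of 0.0027, 0.000419 and 0.000761, and Osm was not tested. Il11 had 26.8, 39.9 and 113 CPM in LPS 1, 2 and 3, and without LPS 3 its log2 difference was 1.83, below those of Il6 and Lif in all libraries. Lif went from 55.5 ± 13.1 to 224 ± 49.4 CPM. The gp130 gene Il6st fell from a mean of 1612 to 876 CPM (a log2 difference of −0.88, and of −0.38 adjusted for length), Lifr by 0.82 and Osmr by 0.54 on the log2 scale, and Il11ra1 rose by 0.48, while Il6ra was not called (−0.34, adjusted p = 0.071, and called at 0.0191 without LPS 1). Adjusted for length, the log2 difference of Osmr was 0.01 and that of Stat3, the transcription factor downstream of gp130, went from −0.44 to a value no longer called (adjusted p = 0.999). Among the other factors, Nfe2l2, which encodes Nrf2, rose by 0.29, and Socs3, a feedback inhibitor of gp130 signalling, by 0.34 on the log2 scale, while Klf6, Ets2 and Pou2f1 fell. The calls of Socs3 (adjusted p = 0.128) and Pou2f1 (−0.31, adjusted p = 0.122) ended after adjustment for length. Those of Socs3 and Nfe2l2 ended without each of Vehicle 1 and Vehicle 2 (adjusted p from 0.0716 to 0.0889), and that of Nfe2l2 also without LPS 2 (0.0562). Elk3, the most abundant regulator without a call, was at 139 ± 11 and 153 ± 23 CPM (adjusted p = 0.351, and called at 0.021 without LPS 1). Grhl3, Elf3, Ehf, Spdef, Prdm1, Osm and Pou2f3 were too low to be tested. Without isolation 2, 1 of these 35 genes, Il6, was called higher and none lower, when 9 genes were called higher and 0 lower over the whole table.

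**Figure D5:**
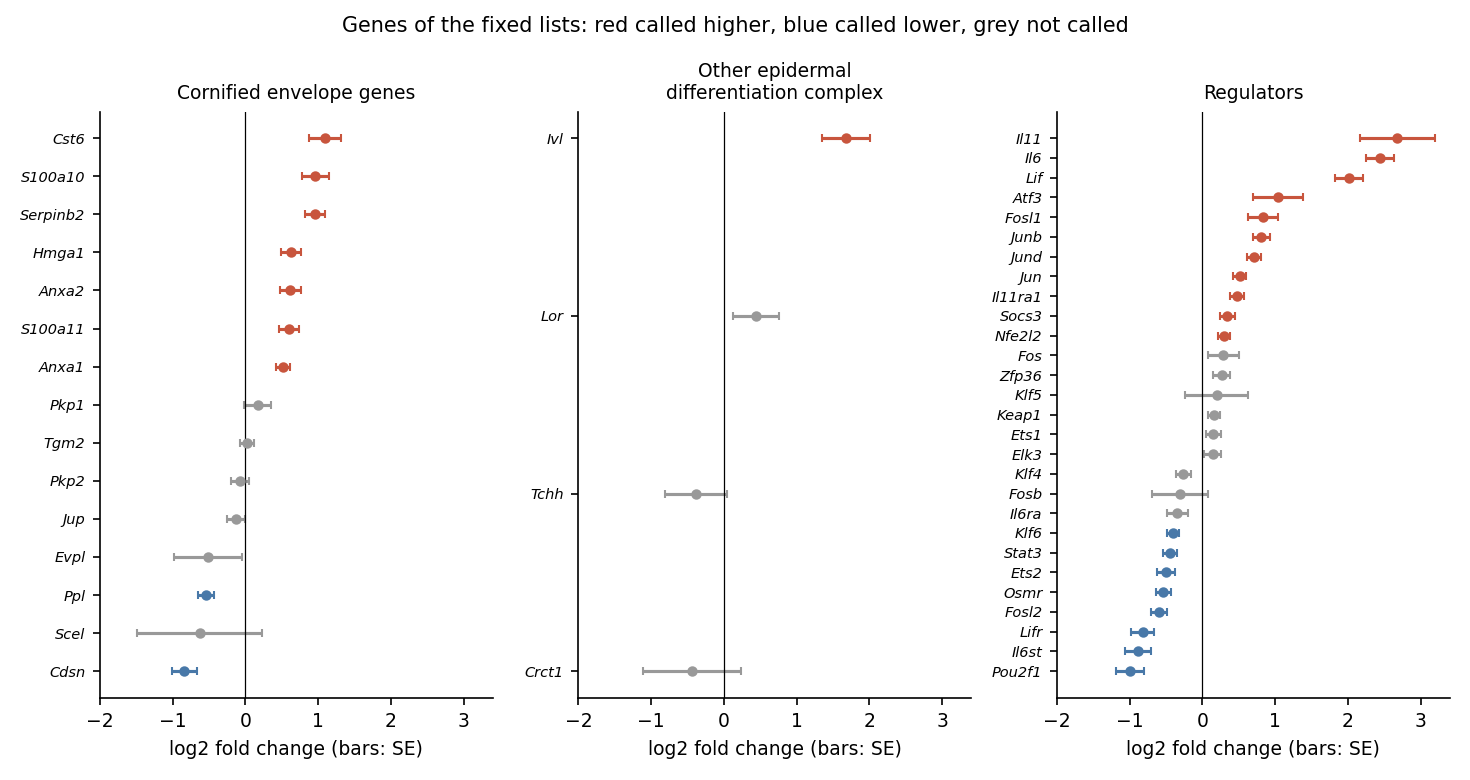
Log2 fold changes of LPS over Vehicle with SE bars for the tested genes of 3 lists: cornified envelope genes, other genes of the epidermal differentiation complex, and regulators of Sprr genes. Red points were called higher, blue points lower and grey points not called; Ivl (1.68), Il11 (2.68), Il6 (2.44) and Lif (2.01) are the highest of their panels.

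The genes whose profile over the 6 libraries was most like that of Sprr1a were found by the Euclidean distance between log2 CPM profiles centred on their means. They were Rgs16, a regulator of G protein signalling (distance 0.0877), the ribosomal protein pseudogene Rpl36a-ps3 (0.101), Esm1, which encodes endocan (0.134), the Mediator subunit gene Med21 (0.166) and Errfi1, a feedback inhibitor of the EGF receptor (0.168). Esm1 rose from 686 ± 94.6 to 1140 ± 266 CPM (adjusted p = 0.00609), and Rgs16, Med21 and Errfi1 rose by 0.78, 0.65 and 0.75 on the log2 scale, while Rpl36a-ps3 was not called (adjusted p = 0.0616). The call of Med21 ended without each of Vehicle 1, Vehicle 2 and LPS 2 (adjusted p from 0.0546 to 0.072), and that of Errfi1 without Vehicle 1 or Vehicle 2 (adjusted p = 0.0507 and 0.0505). All 4 calls ended without isolation 2, when 9 genes of the whole table were called higher. Rpl36a-ps3 was called without LPS 1 (adjusted p = 0.0237). This likeness is a description over 6 libraries that share the LPS contrast and the isolations.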

How the data were processed

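Raw counts per gene were taken as deposited: whole numbers that the authors had not normalized, per the file headers, with a gene length in bases and GRCm38 coordinates. The submitters' processing notes name HISAT2 and the build GRCm38 (mm10). How reads were counted, with which annotation and whether by strand, is not given in the sources used here. Paired-end reads came from TRIzol-extracted total RNA, per the labels' protocols. The LPS columns carry the treatment in their names, and the columns M1 to M3 were taken as Vehicle by elimination. Of the gene names, 27 that a spreadsheet had turned into dates were restored from gene IDs.

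LPS was set against Vehicle in edgeR 4.0.16 under R 4.3.3 (TMM, filterByExpr, 14508 genes kept, 2-sided quasi-likelihood F-test, Benjamini-Hochberg over all tested genes, threshold 0.05), without pairing. SEs are the log2 fold change divided by the root of F. Per the labels a number marks 1 isolation cultured both ways, which pairs the libraries; deviations of paired libraries correlated across genes by 0.0958, −0.045 and 0.206. Isolations were tested by dropping both of their coefficients from the model with group. Alternatives were DESeq2 1.42.0 and its size factors, library sizes alone, no filter, at least 1 CPM in 3 libraries, the replicate block, leaving out each library and each isolation, and a length offset, a natural spline with 5 degrees of freedom of log2 deviations over log2 deposited length in each library. The fits were tested on simulated data. Transcripts and promoters were aligned globally with Biopython 1.88.

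The Sprr genes, the lists and the tests were chosen with earlier results of these data known. Named are all Sprr genes, per list the 3 called genes of largest change and the most abundant one without a call, a fixed marker panel, the nearest neighbours and the 5 genes most like Sprr1a; other list members were named after their values were seen.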

Additional observations from a re-analysis of the deposited data

How the results depend on the processing

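The log2 fold changes of the 5 tested Sprr genes stayed above 0 in all 85 values under alternatives, between 0.29 and 0.94 for Sprr1a, 0.34 and 0.95 for Sprr2b, 1.18 and 1.76 for Sprr2g, 1.33 and 2.44 for Sprr2h and 2.27 and 2.98 for Sprr2e; the lowest of Sprr1a, Sprr2b, Sprr2g and Sprr2e came with the length offset. The log2 ratio of the summed level, 0.89, ranged from 0.72 without LPS 3 to 1.04 without LPS 1, with 0.79 without Vehicle 1 and 1.04 without Vehicle 3. The median of the 5 ranged from 1.33 to 1.76 when a library or isolation was left out.

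Over all genes, 3616 were called higher and 3534 lower. The length offset left 2339 lower, and 1 lower cornified envelope gene and 5 lower regulators; with the replicate block added to it, 5 lower regulators. The replicate block alone gave 3706 higher and 3693 lower, added a call for Col3a1 and Egfl7, ended that of Atf3 and changed no other call among the tested genes of the lists. Leaving out a library or an isolation gave 9 to 4341 genes higher and 0 to 4427 lower, 0 to 1 higher among the other epidermal differentiation genes, 0 to 7 higher and 0 to 2 lower among cornified envelope genes, and 1 to 11 higher and 0 to 10 lower among regulators. All the lowest of these counts came without isolation 2. Leaving out isolation 1 or 3 also leaves 2 libraries a group, and gave 4066 genes higher and 4148 lower, and 2490 higher and 2421 lower. Why isolation 2 weighs so much was not tested. The isolation test called 2 Sprr genes (Sprr1a and Sprr2h) without a filter, when 1.69% of genes were called, and 1 in DESeq2; the cause was not tested.

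Directions reversed for 4 named genes without a call: Tgm2 (−0.049 with library sizes alone, and −0.075 to 0.14 with a library or isolation left out), Acta2 (−0.15 with the length offset, −0.16 with the block added), Col3a1 (0.057 and 0.058 under the same settings) and Upk3b (−0.55 to 0.29 with a library or isolation left out). Of the 458 values of named genes under alternatives, 25 lost and 11 gained a call. At this depth Sprr2d, Sprr2f and Sprr2k are too low for a difference to be read.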
